A study of Homo sapiens and Mus musculus with 33 samples.

Results

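Mouse naive T cells taken from lymph nodes were compared at 4 h and at 2 h of stimulation with antibodies to CD3 and CD28. The comparison rests on 2 of the 33 samples of the series, namely the single-cell libraries labelled 4h and 2h, and asks which transcripts rose and which were shut off after the first wave of induced genes. All 1806 cell barcodes of the 4 h library and all 1997 of the 2 h library were used. A barcode marks 1 droplet that the deposited matrix lists as a cell. Both libraries came from cells labelled with 4-thiouridine (4sU), a uridine analogue built into new RNA, and were made with NOTE-seq, a droplet 3' end assay on formaldehyde-fixed cells with a chemical conversion of the labelled bases. The other naive T libraries of this kind were 0, 6 and 8 h libraries with 4sU and 1 library without 4sU, whose stimulation the labels do not give. The length of the labelling, the number of mice, their age and strain, and whether the times share a pool of cells are not stated in the labels. Since the deposited matrices count all transcripts, new and old RNA are not separated in any value below.

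Binding of the T cell receptor and CD28 sets off calcium, MAP kinase and NF-kappaB signals. These first switch on immediate early genes, whose products are mostly short-lived transcription factors such as the EGR and NR4A proteins. A later wave brings cytokines, chemokines, costimulatory receptors and the machinery of cell growth, while genes that keep a naive T cell at rest and in circulation are turned down.

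Each value is a count of unique molecular identifiers (UMIs), 1 per captured transcript molecule, summed over all barcodes of a library and scaled to the library's total as CPM. The 4 h library held 875658 UMIs with a median of 425.5 per barcode, and the 2 h library held 759152 UMIs with a median of 338. Over all 6 naive T libraries the total ran between 710533 and 1358518 UMIs and the median between 338 and 659 per barcode. No barcode sequence occurred in both the 4 h and the 2 h library. There is 1 library per time, so no difference was tested and no p-value is given. Intervals are exact 95% intervals that cover counting error only. A gene is said to have risen or fallen when its CPM differed by at least 2-fold between the 4 h and the 2 h library and the pair held at least 100 UMIs of it, and genes with that many are called measured.

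The libraries carried the markers of T cells. The 11 pan-T genes summed to 5341 CPM at 4 h and 5414 CPM at 2 h, and all 11 were detected in both. Cd8a and Cd8b1 together had 201 UMIs at 4 h and 246 at 2 h, against 12 and 25 UMIs of Cd4. The naive T cell factor Lef1 stood at 70.8 CPM at 4 h and 211 CPM at 2 h, against 1157 CPM at 0 h, and was thus already low at both stimulated times. Markers of other cells were scarce. The 15 B cell genes summed to 64.0 CPM at 4 h and 90.9 CPM at 2 h, and the 11 natural killer genes to 74.2 and 89.6 CPM, most of it Prf1 with 63 UMIs at 4 h and 60 at 2 h, while Ncr1 was at 0 in both. The 16 myeloid genes summed to 105 CPM at 4 h and 89.6 CPM at 2 h with Lyz2 at 0 in both and most of it Cst3, a cystatin gene of many cell types, with 70 UMIs at 4 h and 30 at 2 h, a log2 ratio of 1.02. Its part in the results was not tested. The 10 stromal and endothelial genes summed to 6.85 CPM at 4 h and 22.4 CPM at 2 h, and all 7 red cell and platelet genes were at 0 in both. Foxp3, the factor of regulatory T cells, had 1 UMI at 4 h and 0 at 2 h.

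Of the 1635 measured genes, 279 (17.1%) were at least 2-fold higher at 4 h and 172 (10.5%) at least 2-fold lower. The median log2 ratio, 4 h over 2 h, was 0.17 over all 1635 genes. The split depends on the scaling. Centring the genes on their own median lowered every log2 ratio by 0.17 and gave 194 higher and 227 lower genes, and counting UMIs per barcode in place of CPM raised every log2 ratio by 0.35 and gave 459 higher and 104 lower genes. The share of higher genes among all that passed the fold was 61.9% by CPM, 46.1% after centring and 81.5% per barcode. Counts for gene lists below are to be read beside the counts over all 1635 genes at the same scaling. At a 4-fold difference 27 genes were higher and 35 lower by CPM, and at 8-fold 6 were higher and 6 lower. The median barcode held 247.5 detected genes at 4 h and 204 at 2 h. Sequencing depth and RNA per cell both move UMIs per barcode and cannot be told apart here, and neither can fewer cells with a transcript and less of it per cell in the summed CPM.

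**Figure D1:**
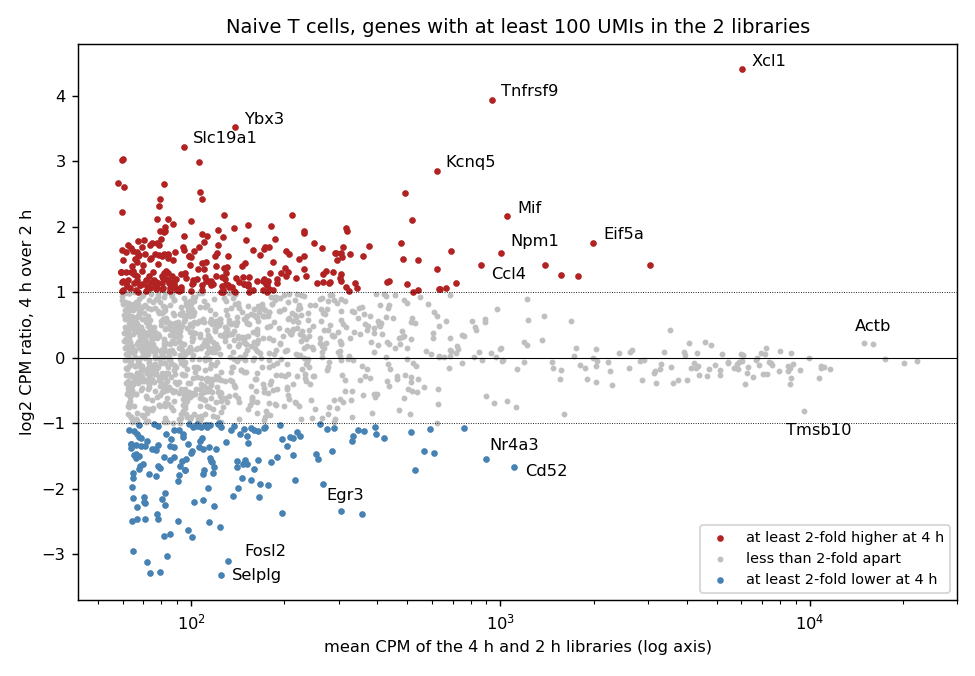
Each point is 1 of the 1635 measured genes, placed by its mean CPM in the 4 h and 2 h libraries (log axis) and its log2 CPM ratio, 4 h over 2 h. Dotted lines mark 2-fold, the 279 genes above the upper one are red and the 172 below the lower one blue. Xcl1 has the largest log2 ratio, 4.40, followed by Tnfrsf9 with 3.94.

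The chemokine gene Xcl1 gave the largest ratio of all measured genes. Xcl1 encodes lymphotactin, which draws cross-presenting dendritic cells that carry the receptor XCR1. Its gene (ENSMUSG00000026573) had 10113 UMIs at 4 h and 415 UMIs at 2 h, which is 11549 CPM (11325 to 11776) at 4 h against 547 CPM (495 to 602) at 2 h. At 4 h it made up 1.15% of all UMIs of the library. The CPM ratio was 21.1-fold (19.1 to 23.4). Over the time course Xcl1 stood at 0 UMIs at 0 h, 547 CPM at 2 h, 11549 CPM at 4 h, 14924 CPM at 6 h and 10126 CPM at 8 h, so most of its climb lay between 2 and 4 h. The library without 4sU held 2.94 CPM.

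Both the number of barcodes with Xcl1 and the amount in each were larger at 4 h. To compare shares at equal depth, each barcode was thinned at random to 250 UMIs, which left out 316 shallower barcodes at 4 h and 590 at 2 h. Xcl1 was then found in 958 of 1490 barcodes at 4 h (64.3%, 61.8 to 66.7) and in 137 of 1407 at 2 h (9.74%, 8.24 to 11.4). Without thinning the shares were 69.0% at 4 h and 12.8% at 2 h. A positive thinned barcode held 4.41 Xcl1 UMIs on average at 4 h and 1.37 at 2 h. At 4 h 5.23% of the thinned barcodes held 10 or more, and at 2 h none did. The tenth of thinned barcodes richest in Xcl1 held 36.6% of its UMIs at 4 h. The background from free RNA could not be measured in another cell type, since the gate for B cells took 1 barcode at 4 h and 1 at 2 h. In the unstimulated 0 h library 0 of 1464 thinned barcodes held Xcl1, which allows a share of up to 0.205% when a count of 0 is taken as up to 3 counts.

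**Figure D2:**
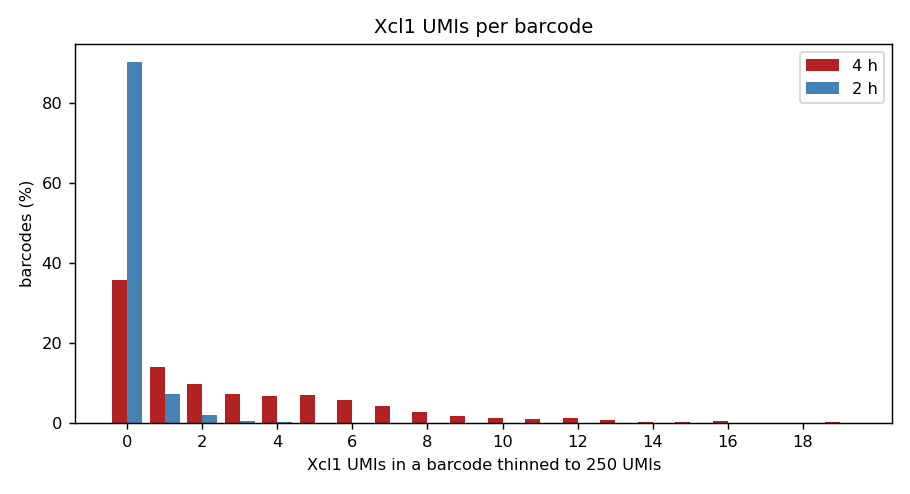
Bars give the percentage of barcodes, each thinned to 250 UMIs, with a given number of Xcl1 UMIs, red for the 1490 barcodes at 4 h and blue for the 1407 at 2 h. At 2 h 90.3% of barcodes held none and the highest held 8, while at 4 h 35.7% held none and counts ran up to 19.

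Xcl1 was high at 4 h in Cd8-marked barcodes and in the rest. Cd8-marked barcodes held a Cd8a or Cd8b1 UMI and no UMI of Cd4 or of 8 B cell genes. They numbered 174 at 4 h and 207 at 2 h. In them Xcl1 stood at 14822 CPM at 4 h and 757 CPM at 2 h, a log2 ratio of 4.29 (3.96 to 4.64). Barcodes in neither the Cd8-marked nor the Cd4-marked class and without both marks numbered 1621 at 4 h and 1765 at 2 h. They had 11157 CPM of Xcl1 at 4 h and 519 CPM at 2 h. Some of them can hold a Cd8 or Cd4 UMI beside a B cell UMI. Only 11 barcodes at 4 h and 24 at 2 h were marked by Cd4, and Xcl1 was found in 6 of the 11 and in 3 of the 24. Most barcodes fell in neither class, and the median UMI count of the Cd8-marked barcodes was above that of the others (587 against 413 at 4 h, 452 against 329 at 2 h).

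Tnfrsf9 came next. It encodes the costimulatory receptor 4-1BB (CD137) of activated T cells. Tnfrsf9 (ENSMUSG00000028965) had 1539 UMIs at 4 h and 87 at 2 h, or 1758 CPM against 115 CPM, a 15.3-fold higher level at 4 h (12.4 to 19.3). In thinned barcodes it was found in 33.0% at 4 h (30.6 to 35.5) and in 2.99% at 2 h (2.16 to 4.01). Its level was highest at 4 h among the 5 times, with 4.10 CPM at 0 h, 1455 CPM at 6 h and 801 CPM at 8 h. Within the 4 h library 38.8% of thinned barcodes with Xcl1 (35.7 to 42.0) and 22.6% of those without (19.1 to 26.3) also held Tnfrsf9.

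Among 25 cytokine and chemokine genes, 7 reached 100 UMIs, of which 3 rose and 1 fell. Over all measured genes 17.1% rose and 10.5% fell. The median log2 ratio of the 7 was 0.97, against 0.17 over all measured genes. The risers were Xcl1 and the inflammatory chemokine genes Ccl3 and Ccl4. Ccl4 stood at 1256 CPM at 4 h and 470 CPM at 2 h, a log2 ratio of 1.42 (1.24 to 1.59). Ccl3 stood at 183 CPM at 4 h and 34.2 CPM at 2 h, a log2 ratio of 2.42 (1.81 to 3.07). Neither had a UMI at 0 h, and after 4 h they parted: Ccl4 was at 951 CPM at 6 h and 467 CPM at 8 h, Ccl3 at 302 CPM at 6 h and 319 CPM at 8 h. Within the 4 h library Ccl4 was found in 23.8% of thinned barcodes with Xcl1 (21.1 to 26.6) and in 7.89% of those without (5.75 to 10.5).

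Tnf, the gene of tumour necrosis factor, was the member that fell. It stood at 59.4 CPM at 4 h and 171 CPM at 2 h, a log2 ratio of -1.53 (-2.02 to -1.05), and at 1.37 CPM at 0 h, 21.2 CPM at 6 h and 11.3 CPM at 8 h. By CPM the lymphotoxin gene Ltb, with a log2 ratio of 0.97, and Tnfsf14 and Tgfb1, with 0.46 and 0.22, stayed within 2-fold. Per barcode Ltb passed 2-fold as well, so that 4 of the 7 rose, against 459 of all 1635 measured genes. The other 18 genes were under 100 UMIs. Il2, the T cell growth factor gene, had 24 UMIs at 4 h and 11 at 2 h. Ifng had 4 UMIs at 4 h and 0 at 2 h. Cd40lg, the CD40 ligand gene, had 12 UMIs at 4 h and 57 at 2 h, and Tnfsf11, the gene of RANKL, had 13 at 4 h and 65 at 2 h.

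Of 24 activation and costimulatory receptor genes, 11 were measured, with 4 risers, 1 gene that fell and a median log2 ratio of 0.22. The shares over all measured genes were 17.1% risers and 10.5% fallers. Besides Tnfrsf9 the risers were Tfrc, Il2ra and Cd160. Tfrc, the transferrin receptor that brings iron into growing cells, stood at 364 CPM at 4 h and 97.5 CPM at 2 h. Il2ra, the high-affinity chain of the IL-2 receptor, stood at 306 CPM at 4 h and 98.8 CPM at 2 h. Cd160, a receptor for HVEM, stood at 491 CPM at 4 h and 163 CPM at 2 h. Their log2 ratios were 1.90, 1.63 and 1.59. Btla, another HVEM receptor, was the one that fell, with a log2 ratio of -1.04, which is within 2-fold when UMIs are counted per barcode. The early activation marker Cd69 was near level with 134 CPM at 4 h and 179 CPM at 2 h, a log2 ratio of -0.42.

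**Figure D3:**
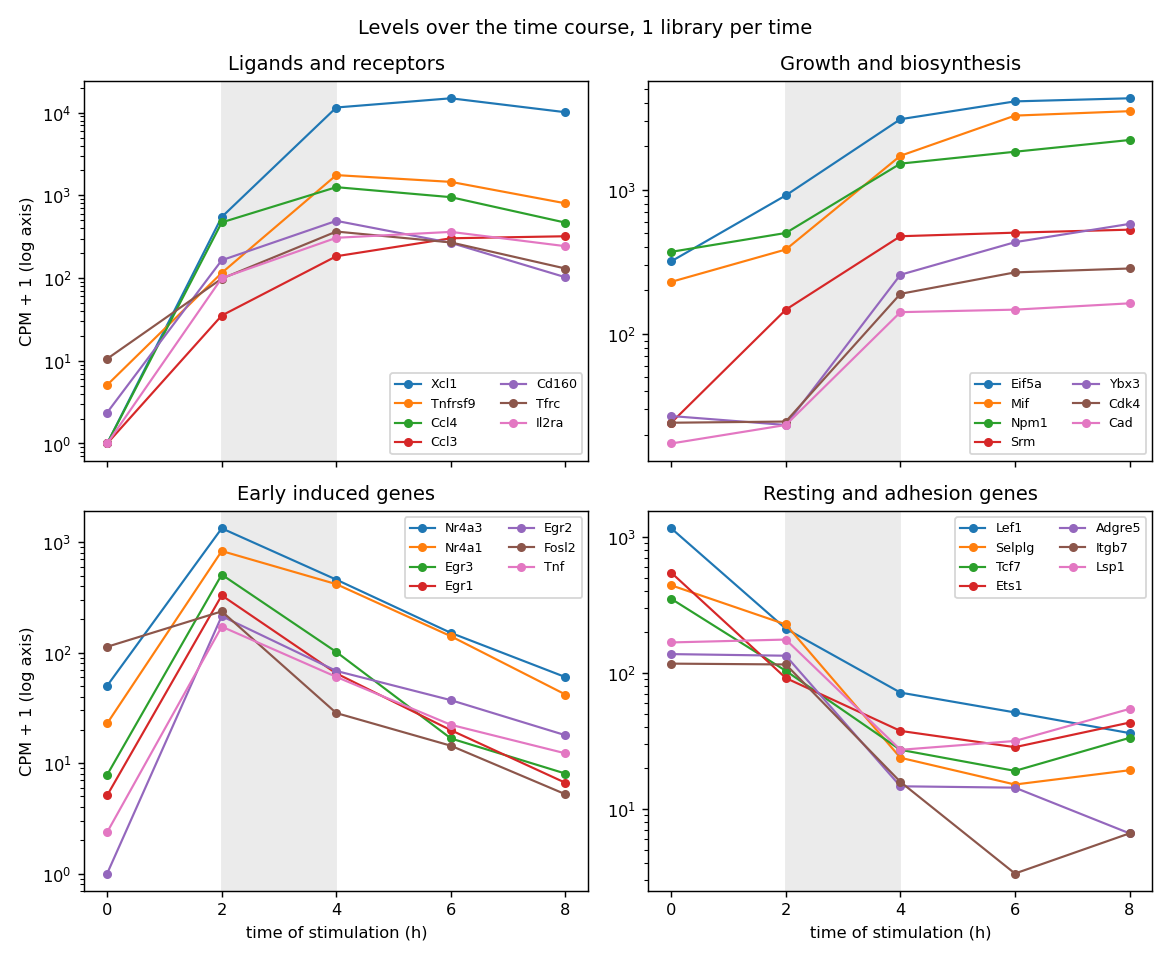
Levels as CPM + 1 (log axis) at 0, 2, 4, 6 and 8 h of stimulation, 1 library per time, for 28 genes in 4 panels, with the 2 to 4 h window shaded. Xcl1 and Tnfrsf9 climb steeply within the window, Ybx3 and Cdk4 are flat up to 2 h and climb after it, the early induced genes peak at 2 h, and Adgre5, Itgb7 and Lsp1 hold their 0 h level at 2 h and drop by 4 h.

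Ybx3 and Cdk4, also among the 12 largest ratios, were near their 0 h level at 2 h. Ybx3, a cold shock domain protein that binds RNA and DNA, had 224 UMIs at 4 h and 17 at 2 h, an 11.4-fold higher level (6.98 to 20.0). It stood at 26.0 CPM at 0 h, 22.4 CPM at 2 h, 256 CPM at 4 h, 431 CPM at 6 h and 577 CPM at 8 h. Slc19a1, the reduced folate carrier, had 150 UMIs at 4 h and 14 at 2 h, a 9.29-fold higher level (5.37 to 17.4). Bcl2l1, the gene of the survival protein Bcl-xL, had 94 UMIs at 4 h and 10 at 2 h, an 8.15-fold higher level (4.24 to 17.5). Cdk4, the kinase partner of D cyclins, had 165 UMIs at 4 h and 18 at 2 h, a 7.95-fold higher level (4.87 to 13.7), and stood at 23.2 CPM at 0 h. With so few UMIs at 2 h, the size of these ratios is loose while their side of 2-fold holds over the whole counting interval.

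The 12 largest ratios also took in Kcnq5, Cad, Dctpp1, Dhx34, Tmem147 and Sept9. Kcnq5, a voltage-gated potassium channel gene, had 957 UMIs at 4 h and 115 at 2 h, a 7.21-fold higher level (5.94 to 8.83), and was found in 20.7% of thinned barcodes at 4 h and 3.41% at 2 h. Cad, the enzyme that begins pyrimidine synthesis, had 123 UMIs at 4 h and 17 at 2 h. Dctpp1, a pyrophosphatase of dCTP, had 160 UMIs at 4 h and 24 at 2 h. Dhx34, an RNA helicase of nonsense-mediated decay, had 93 UMIs at 4 h and 10 at 2 h. It stood at 8.21 CPM at 0 h, 13.2 CPM at 2 h, 106 CPM at 4 h and 35.2 CPM at 8 h. Tmem147, a membrane protein gene, had 88 UMIs at 4 h and 12 at 2 h, and Sept9, a septin, had 91 at 4 h and 13 at 2 h.

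Protein making was read in 3 lists, against 17.1% risers and 10.5% fallers among all measured genes. Of 50 ribosome biogenesis genes, 35 were measured, 13 rose and 0 fell, and all 35 had a log2 ratio above 0, with a median of 0.79. After centring, which lowers every log2 ratio by 0.17, 12 of the 35 rose and the median was 0.63, and per barcode 22 rose. Of all 1635 measured genes 194 rose after centring and 459 per barcode. Npm1, which encodes the nucleolar chaperone nucleophosmin, stood at 1511 CPM at 4 h and 499 CPM at 2 h. Dkc1 and its partners Nop10 and Nhp2, of the complex that makes pseudouridine in ribosomal RNA, had log2 ratios of 2.02, 1.70 and 1.56. Of 35 translation factor genes, 29 were measured, 7 rose, 0 fell and the median was 0.57, with 5 risers after centring and 13 per barcode. Eif5a, the hypusine-bearing elongation factor, stood at 3070 CPM at 4 h and 910 CPM at 2 h, and was found in 54.9% of thinned barcodes at 4 h (52.3 to 57.4) and 17.8% at 2 h (15.8 to 19.9). Pabpc4, a poly(A) binding protein, had 192 UMIs at 4 h and 42 at 2 h, a log2 ratio of 1.99.

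The ribosomal proteins themselves did not follow. Of 83 cytosolic ribosomal protein genes picked by symbol, 80 were measured, 2 rose and 0 fell. Over all measured genes 17.1% rose and 10.5% fell by CPM. Both risers, Rps27l and Rpl7l1, are related genes with names of this pattern and not the core ribosomal proteins, and had log2 ratios of 1.75 and 1.11, and Rpl7l1 was within 2-fold after centring. The median of the 80 was -0.10 by CPM, -0.27 after centring and 0.25 per barcode, so no direction is given. All ribosomal protein UMIs together made up 46.1% of the 4 h library and 49.1% of the 2 h library. The 10 measured genes of the mitochondrial genome stayed within 2-fold, with a median of -0.09 that is 0.26 per barcode, and mitochondrial UMIs made up 0.852% at 4 h and 0.949% at 2 h.

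Among lists with at least 10 measured genes, chaperones had the largest share of risers. Of 35 chaperone and heat shock genes, 28 were measured, 18 rose and 0 fell, with a median log2 ratio of 1.12. By CPM 17.1% of all measured genes rose. After centring 13 of the 28 rose, against 194 of all 1635 measured genes, and per barcode 24 did, against 459. Hspd1, the mitochondrial chaperonin HSP60, stood at 347 CPM at 4 h and 76.4 CPM at 2 h. Hsph1, of the HSP110 family, had 86 UMIs at 4 h and 16 at 2 h, and the cochaperones Cacybp and Fkbp4 had log2 ratios of 1.75 and 1.57. The heat-inducible genes Hspa1a and Hspa1b had 0 UMIs in both libraries. Hspa4l, also of the HSP110 family but outside the list, was among the 12 lowest ratios of all genes, with 21.7 CPM at 4 h and 142 CPM at 2 h.

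Of 43 proteasome subunit genes, 29 were measured, 10 rose and 0 fell, with a median of 0.81. By CPM 17.1% of all measured genes rose. Psma5, Psma7, Psmd1 and Psmb3 had log2 ratios of 1.88, 1.55, 1.40 and 1.29. Centring left 6 of the 29 as risers, and 19 rose per barcode, beside 194 and 459 of all 1635 measured genes.

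Metabolic genes were read by list, against 17.1% risers among all measured genes. Of 24 amino acid transport and one-carbon genes, 9 were measured, 6 rose and 1 fell, with a median of 1.15. After centring 4 of the 9 rose and 1 fell, and per barcode 6 rose and 0 fell. Of all 1635 measured genes 194 rose after centring and 459 per barcode. Shmt2 and Shmt1, the mitochondrial and cytosolic serine hydroxymethyltransferases, stood at 234 and 131 CPM at 4 h against 67.2 and 54.0 CPM at 2 h. Gart, of purine synthesis, had a log2 ratio of 1.64. Of 13 polyamine genes, 5 were measured, 2 rose and 1 fell. Srm, spermidine synthase, stood at 474 CPM at 4 h and 146 CPM at 2 h, and Sat1, which breaks polyamines down, at 41.1 CPM at 4 h and 89.6 CPM at 2 h. Sms, spermine synthase, was the other riser, with a log2 ratio of 1.01 that is within 2-fold after centring, and Sat1 was within 2-fold per barcode. Odc1, the first enzyme of the pathway, stayed within 2-fold with 851 CPM at 4 h and 674 CPM at 2 h.

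Of 23 glycolysis and hypoxia genes, 10 were measured, 3 rose and 0 fell, with a median of 0.67. The risers were Mif, Aldoa and Pgk1, of which Pgk1 was within 2-fold after centring. Mif, a cytokine-like protein counted here with the hypoxia genes, stood at 1712 CPM at 4 h and 383 CPM at 2 h, a log2 ratio of 2.16 (1.98 to 2.35), and reached 3489 CPM at 8 h. Ldha, lactate dehydrogenase, had 741 CPM at 4 h and 422 CPM at 2 h, a log2 ratio of 0.81. Of 83 nuclear genes of the respiratory chain, 66 were measured, 11 rose and 1 fell, with a median of 0.56, a share of risers near the 17.1% of all measured genes. After centring 4 of the 66 rose, against 194 of all 1635 measured genes, and per barcode 28 did, against 459. Ndufa12 and Atp5g1, subunits of complex I and of the ATP synthase, had log2 ratios of 1.73 and 1.35, and Cox7a2l, a supercomplex assembly factor, was the one that fell, with 135 CPM at 4 h and 373 CPM at 2 h. Of 31 sterol and fatty acid genes only 3 were measured, and Fasn, fatty acid synthase, rose with a log2 ratio of 1.25.

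**Figure D4:**
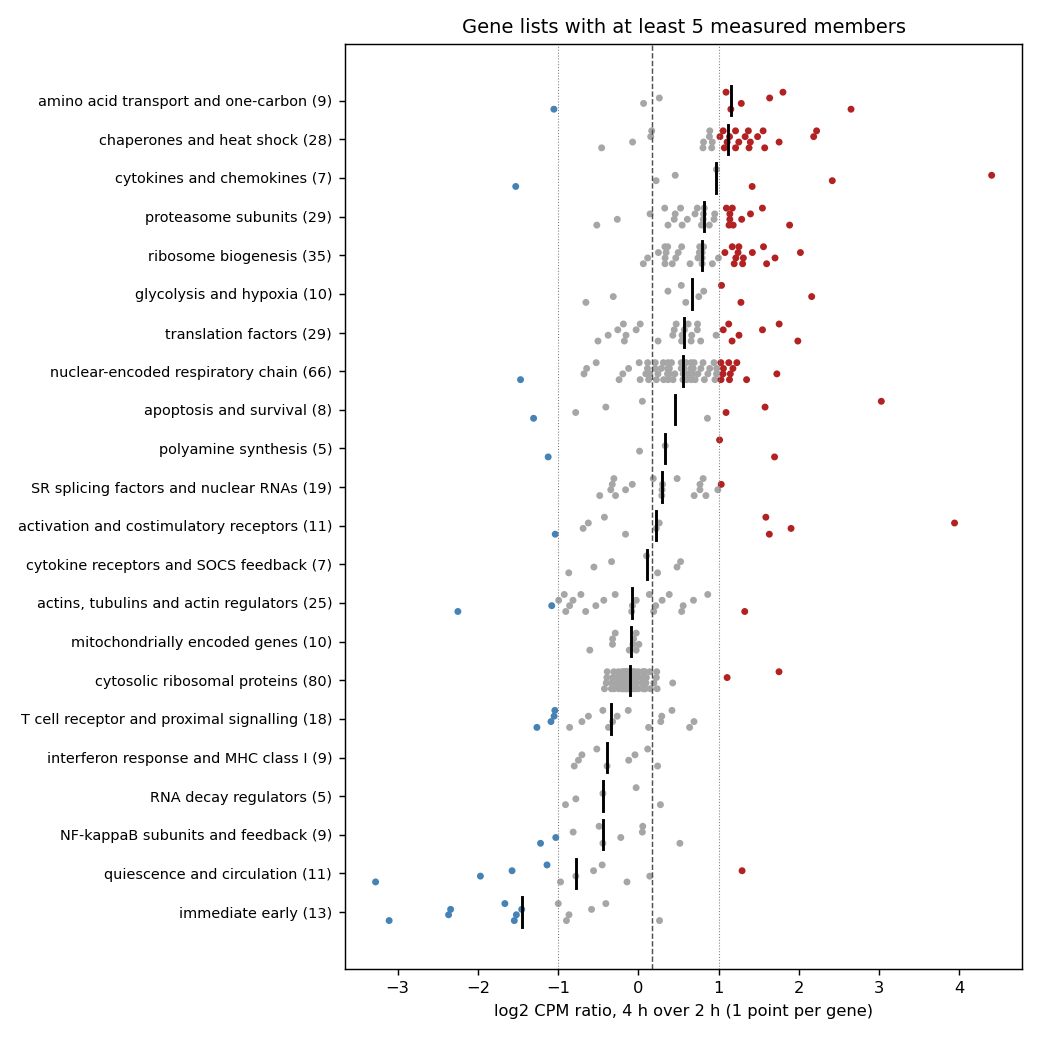
Each row is a gene list with at least 5 measured members (number in brackets) and each point the log2 CPM ratio of 1 member, 4 h over 2 h, with red for at least 2-fold higher, blue for at least 2-fold lower and grey for the rest. Black ticks are list medians and the dashed line is the median of all 1635 genes, 0.17. The list medians run between -1.45 for the immediate early genes and 1.15 for amino acid transport and one-carbon genes.

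Cell cycle genes were sparse. Of 31 G1/S genes, 3 were measured: Cdk4 and Ccnd2 rose and Pcna, the DNA polymerase clamp, stood at 212 CPM at 4 h and 195 CPM at 2 h. Ccnd2, the cyclin D2 gene, stood at 735 CPM at 4 h and 217 CPM at 2 h, and was found in 15.0% of thinned barcodes at 4 h and 5.54% at 2 h. Among 20 G2/M genes only Tubb4b was measured, with a log2 ratio of 0.54, and Mki67 had 0 UMIs at 4 h and 3 at 2 h. Of 23 apoptosis and survival genes, 8 were measured, 3 rose and 1 fell, beside 17.1% and 10.5% of all measured genes. Bcl2l1, Bax and Cflar rose, which encode a survival protein, a death effector and an inhibitor of caspase-8, and Cflar was within 2-fold after centring. Bcl2, the other survival gene, stood at 87.9 CPM at 4 h and 217 CPM at 2 h, a log2 ratio of -1.31 (-1.72 to -0.91) that is within 2-fold per barcode.

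Of 22 transcription factor genes of the effector program 3 were measured. By CPM 1 of them rose and 0 fell, beside 17.1% and 10.5% of all measured genes. Per barcode 2 of the 3 rose, Irf8 and Irf4, against 459 of all 1635 measured genes. Irf8 stood at 194 CPM at 4 h and 50.1 CPM at 2 h, a log2 ratio of 1.96 (1.44 to 2.50), and at 92.8 CPM at 6 h. Irf4, whose level follows the strength of T cell receptor signals, stood at 178 CPM at 4 h and 94.8 CPM at 2 h, a log2 ratio of 0.91 (0.50 to 1.33). Runx1 had a log2 ratio of -0.64.

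Among the immediate early genes none that was measured rose by 2-fold. Of 26 genes, 13 were measured, 7 fell and 0 rose, while 10.5% of all measured genes fell. The median log2 ratio was -1.45, against 0.17 over all genes. The count of genes that fell was 8 without ribosomal protein and mitochondrial UMIs in the total, 10 after centring and 7 per barcode. Over all 1635 measured genes that count was 199, 227 and 104. Counted together, the 26 genes made up 2182 CPM at 4 h and 5618 CPM at 2 h, with 974 CPM at 0 h, 958 CPM at 6 h and 539 CPM at 8 h. After thinning, 39.9% of barcodes at 4 h (37.4 to 42.4) and 71.9% at 2 h (69.5 to 74.3) held at least 1 UMI of any of the 26, and 22.5% did at 0 h.

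The EGR factors are zinc finger proteins switched on by ERK signals, and all 3 measured members fell. Egr3 had 88 UMIs at 4 h and 386 at 2 h, or 100.5 CPM against 508 CPM, a log2 ratio of -2.34 (-2.69 to -2.00). Egr1 stood at 64.0 CPM at 4 h and 329 CPM at 2 h, and Egr2 at 67.4 CPM at 4 h and 213 CPM at 2 h. Nab2, the corepressor that EGR proteins induce and that holds them back, stood at 27.4 CPM at 4 h and 169 CPM at 2 h, a log2 ratio of -2.62 (-3.32 to -1.98). In thinned barcodes Egr3 was found in 2.01% at 4 h and 11.6% at 2 h. Within the 4 h library Egr3 was found in 1.04% of thinned barcodes with Xcl1 (0.502 to 1.91). It was found in 3.76% of those without (2.31 to 5.75), the opposite side to Tnfrsf9 and Ccl4. These shares rest on 10 and 20 barcodes.

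The NR4A orphan receptors follow T cell receptor signals. Nr4a3 stood at 458 CPM at 4 h and 1337 CPM at 2 h, a log2 ratio of -1.55 (-1.72 to -1.38). Nr4a2 stood at 327 CPM at 4 h and 894 CPM at 2 h. Nr4a1 was at the edge of the fold, with 417 CPM at 4 h and 833 CPM at 2 h, a log2 ratio of -0.998 (-1.19 to -0.81) that did not reach it. In thinned barcodes Nr4a1 was found in 10.0% at 4 h and 18.4% at 2 h. Within the 4 h library it was found in 9.19% of thinned barcodes with Xcl1 (7.43 to 11.2) and 11.5% of those without (8.89 to 14.5).

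Of the AP-1 genes with at least 100 UMIs Fosl2 had the lowest ratio, with 24 UMIs at 4 h and 179 at 2 h, a level 8.60-fold higher at 2 h than at 4 h (5.60 to 13.8). Fosl2 stood at 112 CPM at 0 h already. Junb and Jund had log2 ratios of -0.58 and -0.86. Fos and Jun were scarce in both libraries, with 3 UMIs each at 4 h and 5 and 3 at 2 h, and Fosb had 0 UMIs at 4 h and 13 at 2 h. Atf3 had 6 UMIs at 4 h and 59 at 2 h. Myc, which drives growth genes, was the 1 measured member above 0, with 123 CPM at 4 h and 103 CPM at 2 h, a log2 ratio of 0.26 (-0.17 to 0.70).

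Measured feedback genes of these pathways fell or stayed within 2-fold, beside 10.5% of all measured genes that fell. Dusp2, a phosphatase of ERK, stood at 322 CPM at 4 h and 706 CPM at 2 h. Nfkbid, an atypical inhibitor of NF-kappaB, stood at 252 CPM at 4 h and 587 CPM at 2 h. Of 19 NF-kappaB genes 9 were measured, 2 fell (Nfkbid and Birc3) and 0 rose, with a median of -0.44. Nfkbib, another inhibitor of NF-kappaB, had 119 CPM at 4 h and 83.0 CPM at 2 h, a log2 ratio of 0.52 (0.05 to 0.99). Of 11 DUSP and SPRY genes only Dusp2 was measured. Of 13 NFAT genes 2 were measured and both fell: Nfatc1 stood at 104 CPM at 4 h and 225 CPM at 2 h, and Tox, a nuclear factor induced by NFAT in T cells, at 93.6 CPM at 4 h and 341 CPM at 2 h. Counted per barcode Dusp2, Nfatc1, Nfkbid and Birc3 were within 2-fold.

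**Figure D5:**
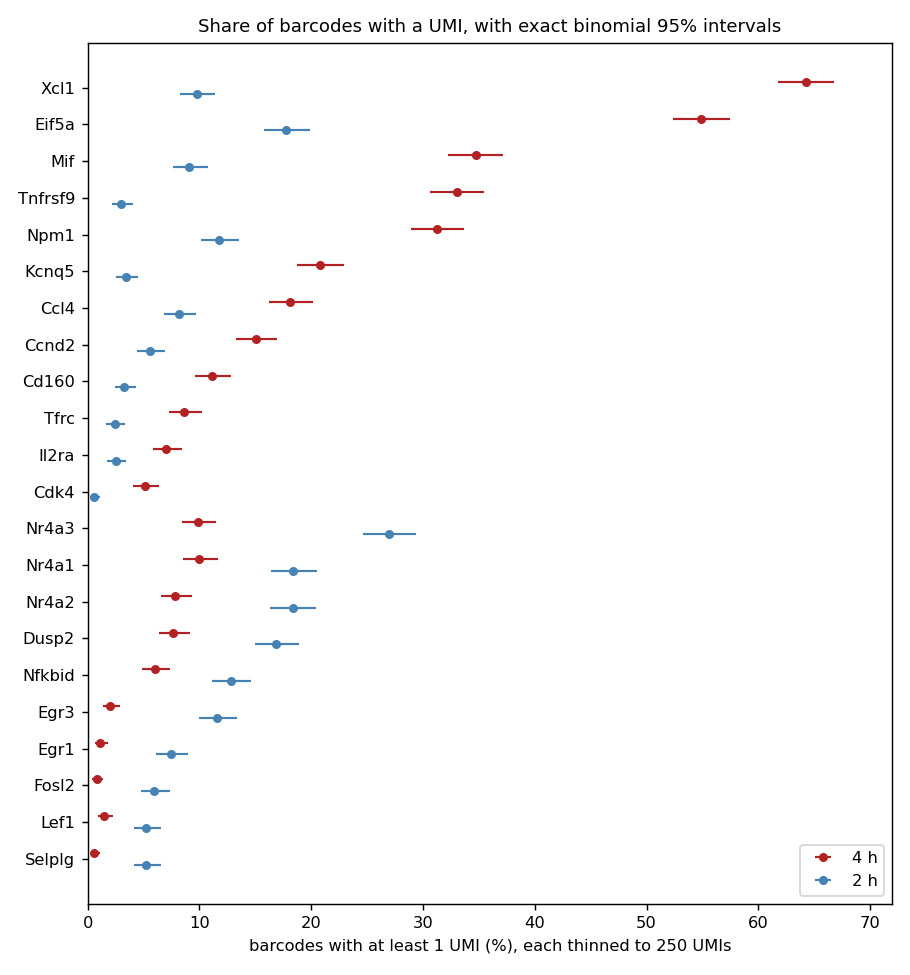
Percentage of barcodes with at least 1 UMI of each gene, at 4 h (red, upper of each pair) and 2 h (blue), after thinning every barcode to 250 UMIs, with exact binomial 95% intervals over barcodes. Xcl1 goes with 64.3% at 4 h and 9.74% at 2 h, Nr4a3 with 9.87% at 4 h and 26.9% at 2 h. The intervals cover counting error within 1 library per time only.

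Most of the 12 lowest ratios belonged to genes already present at rest. Selplg, the gene of the P-selectin ligand PSGL-1 on which leukocytes roll, gave the lowest of all. Selplg (ENSMUSG00000048163) had 20 UMIs at 4 h and 172 at 2 h, or 22.8 CPM (14.0 to 35.3) against 227 CPM (194 to 263). Its log2 ratio was -3.31 (-4.06 to -2.64). It stood at 440 CPM at 0 h, 14.2 CPM at 6 h and 18.3 CPM at 8 h, so it was lower at 2 h than at 0 h and lower again at 4 h.

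Adgre5, the adhesion receptor CD97, Itgb7, the integrin chain of gut homing, and Lsp1, a leukocyte actin-binding protein, shared another course. Adgre5 stood at 137 CPM at 0 h, 133 CPM at 2 h and 13.7 CPM at 4 h. Itgb7 stood at 116 CPM at 0 h, 115 CPM at 2 h and 14.8 CPM at 4 h, and Lsp1 at 167 CPM at 0 h, 175 CPM at 2 h and 26.3 CPM at 4 h. Each was near its 0 h level at 2 h and far below it at 4 h. Pitpnc1, a phosphatidylinositol transfer protein, Actn1, an actin crosslinker, and Tle5, a Groucho-type corepressor, stood at 211, 228 and 305 CPM at 0 h, 149, 148 and 212 CPM at 2 h, and 18.3, 22.8 and 35.4 CPM at 4 h. Rrad, a small GTPase, and Hspa4l were higher at 2 h than at 0 h, with 129 and 142 CPM at 2 h against 28.7 and 17.8 CPM at 0 h, and stood at 14.8 and 21.7 CPM at 4 h.

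Of 28 genes of quiescence and circulation, 11 were measured, 4 fell and 1 rose, with a median of -0.78. Over all measured genes 10.5% fell and 17.1% rose. Dapl1, a gene of naive T cells, stood at 14.8 CPM at 4 h and 144 CPM at 2 h. Tcf7 and Lef1, the factors of the naive and memory-forming state, stood at 26.3 and 70.8 CPM at 4 h against 103 and 211 CPM at 2 h. At 0 h they had stood at 350 and 1157 CPM, so most of their loss in CPM came before 2 h. Satb1, a chromatin organiser, had a log2 ratio of -1.14 and was within 2-fold per barcode. Slfn2, a quiescence factor of the Schlafen family, went the other way with 184 CPM at 4 h, 75.1 CPM at 2 h and 264 CPM at 0 h. The homing receptor gene Ccr7 had a log2 ratio of -0.45, and Klf2 was at 9 UMIs in both libraries. Counted together, at least 1 UMI of the 28 genes was found in 30.2% of thinned barcodes at 4 h (27.9 to 32.6), 45.8% at 2 h (43.2 to 48.5) and 84.4% at 0 h.

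Most genes of the T cell receptor and its first kinases stayed within 2-fold. Of 24 receptor and proximal signalling genes, 18 were measured, 4 fell and 0 rose, with a median of -0.35. By CPM 10.5% of all measured genes fell. Counted per barcode none of the 18 fell, 1 rose and the median was 0.00. The genes that fell by CPM were Ptpn22, a phosphatase that restrains the receptor, Lck, the first kinase of the pathway, Lcp2, the adaptor SLP-76, and Cd247, the zeta chain. Lck stood at 176 CPM at 4 h and 374 CPM at 2 h, and Cd247 at 68.5 CPM at 4 h and 141 CPM at 2 h. Cd3d, Cd3e, Trac and Trbc2 had log2 ratios of -0.44, -0.37, 0.42 and 0.28. Cd8b1 stood on 88 UMIs at 4 h and 161 at 2 h, a log2 ratio of -1.08, and Cd8a on 113 at 4 h and 85 at 2 h, a log2 ratio of 0.20.

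Of 15 ETS factor genes 2 were measured and both fell by CPM: Ets1 stood at 36.5 CPM at 4 h and 90.9 CPM at 2 h, and Elk4 at 94.8 CPM at 4 h and 202 CPM at 2 h. Per barcode both were within 2-fold, and over all measured genes 10.5% fell by CPM. Fli1, the ETS factor that the study's title names, was under the minimum of 100 UMIs, with 7 UMIs at 4 h and 31 at 2 h. That is 7.99 CPM (3.21 to 16.5) at 4 h against 40.8 CPM (27.7 to 58.0) at 2 h, and 170 CPM at 0 h, 12.6 CPM at 6 h and 11.3 CPM at 8 h. Fli1 was found in 2 of 1490 thinned barcodes at 4 h (0.134%, 0.0163 to 0.484) and in 17 of 1407 at 2 h (1.21%, 0.705 to 1.93), against 62 of 1464 at 0 h.

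Cytoskeletal and interferon genes mostly stayed within 2-fold. For all lists of this paragraph the shares over all measured genes by CPM were 17.1% risers and 10.5% fallers. Of 25 measured actin, tubulin and actin regulator genes 1 rose and 2 fell. After centring 6 of the 25 fell, against 227 of all 1635 measured genes. Per barcode 3 of the 25 rose and 1 fell, against 459 and 104 of the 1635. Tuba1b, an alpha-tubulin, stood at 389 CPM at 4 h and 155 CPM at 2 h. Vim, the intermediate filament vimentin, stood at 28.6 CPM at 4 h and 136 CPM at 2 h, and Coro1a, an actin-binding coronin, at 380 CPM at 4 h and 804 CPM at 2 h, which is within 2-fold per barcode. None of the 9 measured interferon and MHC class I genes passed 2-fold, and H2-D1, a class I heavy chain, had a log2 ratio of -0.75. No RNA decay regulator of the 5 measured passed 2-fold by CPM, while 1 fell after centring, and Zfp36l1, which promotes decay of AU-rich transcripts, was lowest with a log2 ratio of -0.91. Of 19 measured splicing factors and nuclear RNAs, 1 rose and 0 fell. The riser was Hnrnpa1, with a log2 ratio of 1.03 that is within 2-fold after centring. Per barcode 7 of the 19 rose, as did 459 of all 1635 measured genes. None of the 7 measured cytokine receptor and feedback genes passed 2-fold by CPM, with 1 that fell after centring, and neither of the 2 measured stress genes, Atf4 and Sqstm1, passed 2-fold.

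Among the 169 abundant genes, those with at least 1000 UMIs in the pair, 17 (10.1%) rose and 3 (1.78%) fell. Both shares were below the 17.1% and 10.5% of all 1635 measured genes. Besides genes already given, the risers were Ran, Ncl, Ptma, Slc25a5, Hspa8, Serbp1, Uqcrq, Atp5b and Nme2, with log2 ratios between 1.04 and 1.63, named after their values were seen. Ran, the GTPase of nuclear transport, stood at 1048 CPM at 4 h and 340 CPM at 2 h. Ncl, nucleolin, stood at 2034 CPM at 4 h and 760 CPM at 2 h. Ptma, prothymosin alpha, stood at 4432 CPM at 4 h and 1661 CPM at 2 h. The genes that fell were Nr4a3, Cd52 and Maml2. Cd52, a small surface glycoprotein gene of lymphocytes, stood at 529 CPM at 4 h and 1682 CPM at 2 h, a log2 ratio of -1.67 (-1.83 to -1.52). Maml2, a coactivator of Notch, stood at 493 CPM at 4 h and 1035 CPM at 2 h, which is within 2-fold per barcode. Some of these genes, such as Ptma, Npm1, Eif5a and Ran, have near-identical processed copies in the genome, and reads shared with those may have been split or lost in the authors' counting.

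The same genes were looked up in the other naive T libraries, which enter neither side of the ratio above. In the 6 h library against the 0 h library, 41.1% of the 1539 measured genes were at least 2-fold higher and 14.5% at least 2-fold lower. Of the 279 genes higher at 4 h, 276 could be measured there, and 253 were higher and 0 lower at 6 h than at 0 h. Of the 172 genes lower at 4 h, 131 could be measured, and 101 were lower and 6 higher. Genes that could not be measured there include Egr1, Egr2, Egr3, Nab2, Fosl2 and Tnf. They had under 100 UMIs in the 6 h and 0 h libraries together, so this count does not cover them. A gene scarce at 6 h could reach that minimum only through a high 0 h count. Selplg had 18 UMIs at 6 h and 322 at 0 h, while Nab2, with 15 and 9, was left out. A gene scarce at 0 h likewise passed only through its 6 h count. These counts of higher and lower genes are thus partly set by the minimum, and no conclusion is drawn from them. In the 8 h library against the library without 4sU, which differ in label as well, 37.5% of 1494 genes were higher and 19.3% lower. There, 231 of 254 genes from the first set were higher and 2 lower, and 114 of 139 from the second were lower and 2 higher. The same minimum shapes these counts, so no conclusion is drawn from them either. For scale, between the 0 h library and the library without 4sU 0.311% of 1285 genes were at least 2-fold higher and 2.1% at least 2-fold lower.

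Within the Cd8-marked barcodes Tnfrsf9, Kcnq5, Egr3 and Selplg had ratios on the same side as in the whole libraries. Tnfrsf9 had 208 UMIs at 4 h and 14 at 2 h there, a log2 ratio of 3.77 (2.99 to 4.66), and Kcnq5 had 128 and 15 UMIs, a log2 ratio of 2.97 (2.19 to 3.85). Egr3 had 20 UMIs at 4 h and 49 at 2 h, a log2 ratio of -1.42 (-2.25 to -0.64), and Selplg had 3 at 4 h and 28 at 2 h, a log2 ratio of -3.35 (-5.71 to -1.65). Some other genes had a less negative or near-level ratio there, on few UMIs. Tox had 14 UMIs at 4 h and 16 at 2 h, a log2 ratio of -0.32 (-1.46 to 0.81), against -2.01 in barcodes of neither class. Elk4 had 13 UMIs at 4 h and 11 at 2 h, a log2 ratio of 0.11 (-1.16 to 1.42), against -1.22 in barcodes of neither class. Zfp36l1 had 30 UMIs at 4 h and 32 at 2 h, a log2 ratio of -0.22 (-0.99 to 0.55), against -1.01 in barcodes of neither class. In the whole libraries the log2 ratios were -1.87 for Tox, -1.09 for Elk4 and -0.91 for Zfp36l1. Those of Elk4 and Zfp36l1 lie within the intervals of the Cd8-marked barcodes. Those 3 are examples chosen after their values were seen, and the difference between the classes was not tested.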

How the data were processed

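Naive T cells were profiled by droplet single-cell 3' RNA sequencing with 4sU labelling, 1 library per time. The authors deposited raw UMI counts per gene and barcode, made with cellranger 7.2.0 per the file headers, and the build named is mm10 per the submitters' processing notes. Other settings are not given in the sources used here.

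All deposited barcodes were kept and their counts summed per library and scaled to CPM. Genes needed 100 UMIs in the pair and a 2-fold CPM difference to be called, and a count of 0 was set to 3 counts. Exact Poisson intervals were used for CPM and exact binomial (Clopper-Pearson) 95% intervals for shares and for the UMI split behind a ratio. With 1 library per time no test was made. Shares were taken after thinning to 250 UMIs, leaving out 17.5% of barcodes at 4 h and 29.5% at 2 h. No doublet caller was run. An alternative left out barcodes over 4 times the median UMIs, 5 at 4 h and 6 at 2 h.

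The comparison, the 30 pathway lists and the 13 marker lists were chosen with earlier results of these data known. The genes named are Xcl1, Fli1, the 12 highest and 12 lowest ratios, and up to 4 members of each list with the largest ratios in either direction. Other list members, markers and abundant genes that are named were chosen after their values were seen. The computation was tested on simulated data. Python 3.11.15, numpy 2.4.6, scipy 1.17.1, pandas 2.3.3 and matplotlib 3.10.9 were used. Some results on single genes are not reported here.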

Additional observations from a re-analysis of the deposited data

How the results depend on the processing

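With 1 library per time, no replicate could be left out, and a difference between these libraries may be that of the times or of the preparations, which cannot be told apart. No paired analysis was possible because each time has a single library. The count of genes past 2-fold, 279 higher and 172 lower at 4 h, moved by over 1.5 times in at least 1 direction under these settings: 459 higher and 104 lower with UMIs per barcode, a scaling chosen after seeing the data, 480 and 406 with a minimum of 50 UMIs, 129 and 63 with 200 UMIs, 1365 and 1917 with 4 UMIs, 501 and 312 at 1.5-fold, and 83 and 70 at 3-fold. It stayed within 1.5 times when ribosomal protein and mitochondrial UMIs were left out of the total (236 and 199), with median-of-ratios scaling (194 and 227), the mean over barcodes (282 and 173), thinned barcodes (302 and 183), without the B cell gate (279 and 173), without barcodes over 4 times the median (283 and 172), and with only the 993 barcodes at 4 h and 1054 at 2 h that held a Cd3d, Cd3e, Cd3g or Trac UMI, also chosen after seeing the data (268 and 181). Leaving out barcodes over 10% mitochondrial UMIs or shared barcode sequences removed none. Of the 88 genes named by rule past 2-fold, between 75 (UMIs per barcode) and 88 stayed past it under each of the 10 settings that recompute the ratio, and 0 changed direction. Depth limits the genes that could be read: 14963 were detected in the pair and 1635 measured.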
